A study of Mus musculus with 12 samples.

Results

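The Cyp2a genes encode cytochrome P450 enzymes that sit in the membrane of the endoplasmic reticulum and hydroxylate steroids, bile acids, drugs and plant toxins. The 4 mouse members Cyp2a4, Cyp2a5, Cyp2a12 and Cyp2a22 were taken by symbol from a liver RNA-seq table of 49398 genes. Of the 13814 genes that passed the filter on low counts, 3 were members (Cyp2a4, Cyp2a5 and Cyp2a12). Cyp2a22 did not pass, because it was at 0 in 11 of the 12 livers. The livers came from wild-type C57BL/6J mice aged 9 months. They ate an AIN-93G chow with no added oil (CTRL, the control), with 1% by weight of a concentrate of very-long-chain polyunsaturated fatty acids (VLC1), or with 5% of it (VLC5), for 8 weeks, and fasted for 5 hours before the livers were taken. The submitters' design text gives 6 livers a group, of which 4 per diet were analysed here, 2 from females and 2 from males, each from its own animal, and the labels used here give neither the hour of collection nor a cage. A single inbred strain and 2 animals per sex and diet limit the groups as a model.

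As background, Cyp2a4 is a steroid hydroxylase long known to be more abundant in female than in male mouse liver. Cyp2a5 is the mouse counterpart of the human nicotine- and coumarin-oxidising enzyme, it oxidises bilirubin, and it is known to be induced in stressed or injured liver. Factors known to act on Cyp2a5 in mouse hepatocytes include NRF2 (Nfe2l2), the xenobiotic receptor CAR (Nr1i3), HNF4A and the clock output factor DBP. Cyp2a12 hydroxylates testosterone and puts a hydroxyl group back on secondary bile acids. The role of Cyp2a22 is not described here.

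The 4 genes lie on chromosome 7 in a cluster of Cyp2 genes, in the order Cyp2s1, Cyp2b10, Cyp2b13, Cyp2b9, Cyp2a4, Cyp2b23, Cyp2b19, Cyp2g1, Cyp2a5, Cyp2a22, Cyp2a12, Cyp2f2 and Cyp2t4 when pseudogenes are left out (RefSeq, GRCm38.p6). They form pairs. The coding sequences of Cyp2a4 and Cyp2a5 differed at 23 of 1485 bases (98.5% identity), and those of Cyp2a12 and Cyp2a22 at 45 of 1479 (97.0%). Identity between the pairs was 75.3% to 76.4%. The stretch of 60 coding bases in which Cyp2a4 and Cyp2a5 differ most is printed below because the estimated split of reads between the genes rests on such differences. It spans coding bases 596 to 655 of the main transcripts in the GENCODE M21 annotation, and capitals mark the 4 bases that differ.
Cyp2a4: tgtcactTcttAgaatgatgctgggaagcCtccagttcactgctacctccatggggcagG
Cyp2a5: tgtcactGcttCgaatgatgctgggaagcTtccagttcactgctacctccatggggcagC
The longest coding run without a difference was 216 bases. Of the 1708 windows of 31 bases in the main Cyp2a4 transcript, 955 (55.9%) also occurred in a Cyp2a5 transcript and 0 in a Cyp2a12 transcript. A read that lies wholly within shared sequence cannot be assigned to Cyp2a4 or Cyp2a5 by sequence, whereas a read that also covers a difference can. The share of windows is therefore not the share of such reads, which was not measured. The value of each of these genes is uncertain to that extent, and the sum of both is given beside them. The sum does not depend on the split.

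The promoters follow the same pairs. The 250 bases upstream of each annotated start are printed to show what the near-identical pair shares and Cyp2a12 lacks (RefSeq, GRCm38.p6; 4 of 4 members matched by symbol). Capitals mark matches to the D-box TTATGNAA, the letters that DBP and its relatives bind, and to the HNF4-type site GGACTTTG, both read on either strand, and lower case marks the rest. The windows are chr7:26306942-26307191 on the plus strand for Cyp2a4, chr7:26835089-26835338 on the plus strand for Cyp2a5, chr7:27028840-27029089 on the plus strand for Cyp2a12 and chr7:26939387-26939636 on the minus strand for Cyp2a22.
Cyp2a4: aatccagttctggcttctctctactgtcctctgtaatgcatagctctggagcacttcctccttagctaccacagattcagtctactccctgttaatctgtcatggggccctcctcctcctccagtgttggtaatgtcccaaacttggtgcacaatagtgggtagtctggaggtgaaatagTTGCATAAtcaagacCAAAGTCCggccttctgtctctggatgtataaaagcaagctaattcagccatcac
Cyp2a5: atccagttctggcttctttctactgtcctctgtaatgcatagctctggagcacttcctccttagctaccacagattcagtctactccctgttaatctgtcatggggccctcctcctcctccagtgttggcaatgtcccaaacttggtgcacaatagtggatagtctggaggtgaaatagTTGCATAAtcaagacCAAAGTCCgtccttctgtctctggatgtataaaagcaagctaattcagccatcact
Cyp2a12: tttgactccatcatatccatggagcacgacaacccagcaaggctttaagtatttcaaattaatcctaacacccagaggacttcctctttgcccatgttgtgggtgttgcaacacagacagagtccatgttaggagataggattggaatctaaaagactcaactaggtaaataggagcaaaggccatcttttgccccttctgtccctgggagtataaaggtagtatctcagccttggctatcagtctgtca
Cyp2a22: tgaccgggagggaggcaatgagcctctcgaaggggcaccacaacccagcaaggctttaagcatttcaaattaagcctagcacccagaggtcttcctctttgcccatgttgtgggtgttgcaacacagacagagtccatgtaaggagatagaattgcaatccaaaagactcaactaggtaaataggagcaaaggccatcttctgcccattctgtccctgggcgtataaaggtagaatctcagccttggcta
Over 249 aligned bases, the Cyp2a4 and Cyp2a5 windows differed at 4 (98.4% identity), whereas Cyp2a4 and Cyp2a12 shared 63.7% of 215 aligned bases. Both Cyp2a4 and Cyp2a5 held the D-box letters, beginning at base -70 in Cyp2a4 and -71 in Cyp2a5, and the HNF4-type letters, beginning at -55 in Cyp2a4 and -56 in Cyp2a5; the matches do not overlap each other. Cyp2a12 and Cyp2a22 held neither in this window. Of all 32851 promoters in the table, 3.07% held the D-box letters and 1.20% the HNF4-type letters in a window of the same length. The NRF2 core TGACNNNGC and the STAT5 letters TTCNNNGAA, searched on both strands, were in none of the 4 windows (10.2% and 7.02% of all promoters held them). The letters TATAAA, searched on the printed strand, were in all 4 windows and in 7.59% of all promoters. These matches describe letters and not binding.

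Libraries held 5291385 to 15674130 estimated reads. The 7 hepatocyte markers found in the table summed to between 91415 and 177883 CPM over all livers (reads of a gene scaled to the size of the library, with TMM factors), against at most 482 CPM for the 8 Kupffer cell and macrophage markers. Xist and Eif2s3y reads matched the labelled sex of the animals. The share of long noncoding reads ran from 0.646% to 1.91%. In bulk tissue, fewer cells of a type and less RNA per cell cannot be told apart.

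Cyp2a4 was far more abundant in livers of the 5% diet than in control livers of the same sex. In VLC5 females it stood at 1539 and 2103 CPM, against 373 and 635 CPM in CTRL females. In VLC5 males it stood at 36.5 and 97.8 CPM, against 7.38 and 4.45 CPM in CTRL males. Within each sex the VLC5 livers did not overlap the CTRL livers, but with 2 against 2 livers this also held for 34.8% of all genes tested in females and 36.9% in males. The VLC5 males stayed below every female liver of any diet. With sex in the model, Cyp2a4 rose by 2.69 ± 0.42 on the log2 scale (SE; 6.44-fold; edgeR's quasi-likelihood test over 12 livers, adjusted p = 0.00712). In that comparison 340 of 13814 genes passed the threshold of 0.05 (2.46%), 164 of them higher in VLC5 (1.19%). Of the 3 members tested, only Cyp2a4 passed. Cyp2a4 kept its call when any of the 12 livers was left out (1 at a time), with adjusted p from 0.00175 to 0.0303. Without the term for sex the change was 1.89 (adjusted p = 0.826), since the sexes then count as spread.

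Cyp2a5 stood at 989 and 938 CPM in VLC5 females and at 1402 and 1400 CPM in VLC5 males. In CTRL livers it stood at 639 and 321 CPM in females and 239 and 386 CPM in males. Every VLC5 liver lay above every CTRL liver; of all genes tested, the groups did not overlap for 6.08%. The log2 change was 1.66 ± 0.50 (SE; 3.17-fold), and it did not pass (edgeR adjusted p = 0.123, unadjusted p = 0.00676). It passed under DESeq2 (adjusted p = 0.00526), which called 749 genes where edgeR called 340. It also passed in edgeR without the VLC1 male N971 (adjusted p = 0.0195), whose Cyp2a5 level of 92.2 CPM was the lowest of the 12 and which enters the estimate of the spread.

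The sum of Cyp2a4 and Cyp2a5 was 2528 and 3041 CPM in VLC5 females and 1438 and 1498 CPM in VLC5 males. In CTRL livers it was 1012 and 955 CPM in females and 246 and 390 CPM in males. Every VLC5 liver lay above every CTRL liver of either sex, where the groups did not overlap for 6.08% of all genes tested. The sum rose by 1.89 ± 0.39 on the log2 scale (SE; 3.70-fold; edgeR adjusted p = 0.0252). Its call was lost when any of 6 livers was left out: N980 (adjusted p = 0.0881), N979 (0.0722), N968 (0.0633) and N967 (0.0691) of CTRL, and N988 (0.0628) and N976 (0.0807) of VLC5. The log2 change then stayed between 1.76 and 2.05.

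Cyp2a12, on the same chromosome, had lower values on the 5% diet. It stood at 443 and 400 CPM in VLC5 females and 491 and 363 CPM in VLC5 males, against 650 and 643 CPM in CTRL females and 502 and 811 CPM in CTRL males. Every VLC5 liver lay below every CTRL liver, although the highest VLC5 value (491 CPM) and the lowest CTRL value (502 CPM) were close. The groups did not overlap for 6.08% of all genes tested. Means were 424 ± 55.3 CPM in VLC5 and 651 ± 126 CPM in CTRL (SD, n = 4 each). The log2 change was -0.62 ± 0.17 (SE), and it did not pass (edgeR adjusted p = 0.0744). It passed under DESeq2 (adjusted p = 0.00996) and in edgeR without the CTRL male N967 (adjusted p = 0.0391).

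**Figure D1:**
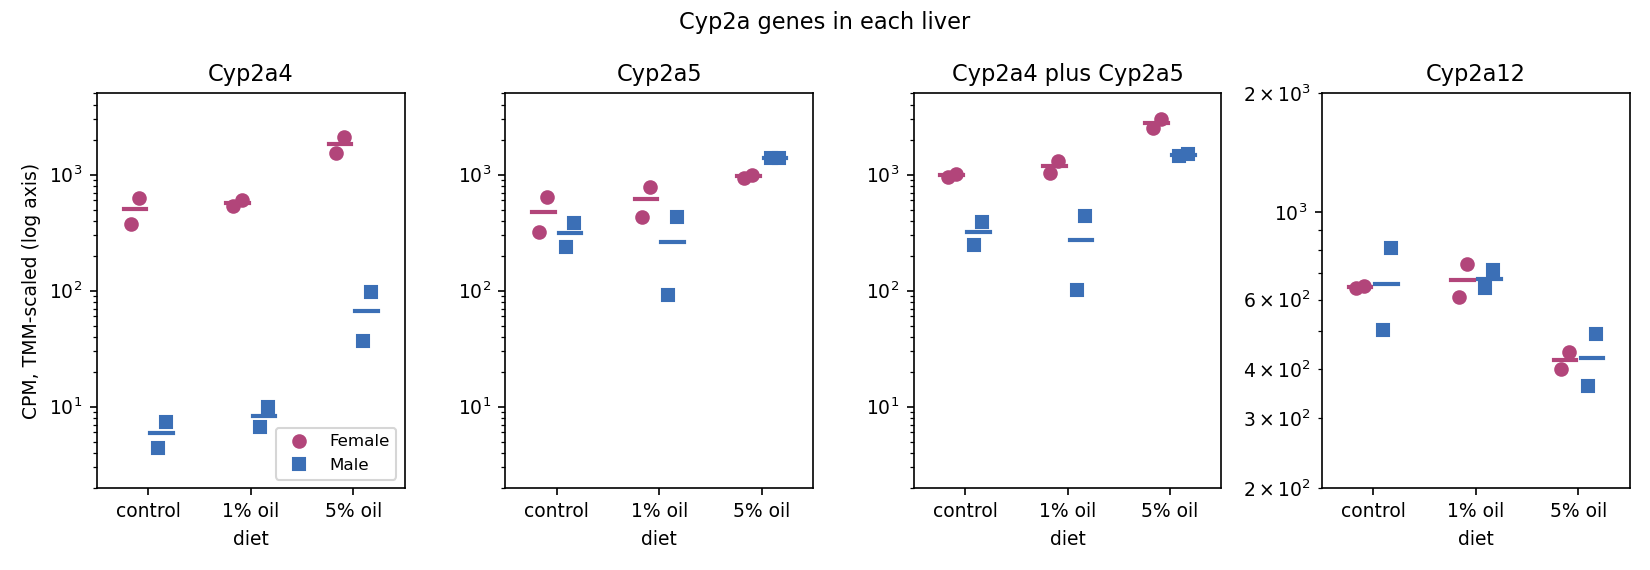
Each point is a liver and each short line the mean of 2; the vertical axis is CPM on a log scale, with its own range for Cyp2a12, and the horizontal axis is diet, females as circles and males as squares. Cyp2a4 in VLC5 males reached 36.5 and 97.8 CPM, above the CTRL males at 7.38 and 4.45 CPM and below all females. Cyp2a12 lay lower in all VLC5 livers than in any CTRL liver, and 6.08% of all genes tested did not overlap between these groups.

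No Cyp2a gene passed the test on the 1% diet. Cyp2a4 stood at 606 and 532 CPM in VLC1 females and 9.90 and 6.64 CPM in VLC1 males. Cyp2a5 stood at 434 and 787 CPM in VLC1 females and 92.2 and 433 CPM in VLC1 males. Cyp2a12 stood at 608 and 740 CPM in VLC1 females and 643 and 713 CPM in VLC1 males. VLC1 and CTRL livers overlapped for all 3 genes, and Cyp2a4 overlapped within each sex. The VLC1 male N971, at 92.2 CPM of Cyp2a5 and 102 CPM of the sum, lay below every CTRL liver. The log2 changes against CTRL were 0.28 ± 0.39 for Cyp2a4, 0.10 ± 0.48 for Cyp2a5, 0.05 ± 0.17 for Cyp2a12 and 0.04 ± 0.37 for the sum (SE). None passed (edgeR adjusted p from 0.827 to 0.978), in a comparison that called 31 of 13814 genes (0.224%). The errors leave room for changes of moderate size, so equality was not shown.

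The doses were compared directly as well. Cyp2a4 was higher in VLC5 than in VLC1 livers, by 2.40 ± 0.41 on the log2 scale (edgeR adjusted p = 0.0266), and so was the sum, by 1.85 ± 0.39 (adjusted p = 0.0438). In this comparison 184 genes passed (1.33%). The difference was 1.57 ± 0.51 for Cyp2a5 (adjusted p = 0.151) and -0.67 ± 0.17 for Cyp2a12 (adjusted p = 0.0690), and neither passed. VLC5 and VLC1 livers did not overlap for Cyp2a5, Cyp2a12 or the sum, where 7.65% of all genes tested did not overlap. The Cyp2a4 call was lost without any 1 of the VLC1 livers N984 (adjusted p = 0.0890), N983 (0.0620), N972 (0.0573) or N971 (0.0866), and the call on the sum was lost without 10 of the 12 livers.

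**Figure D2:**
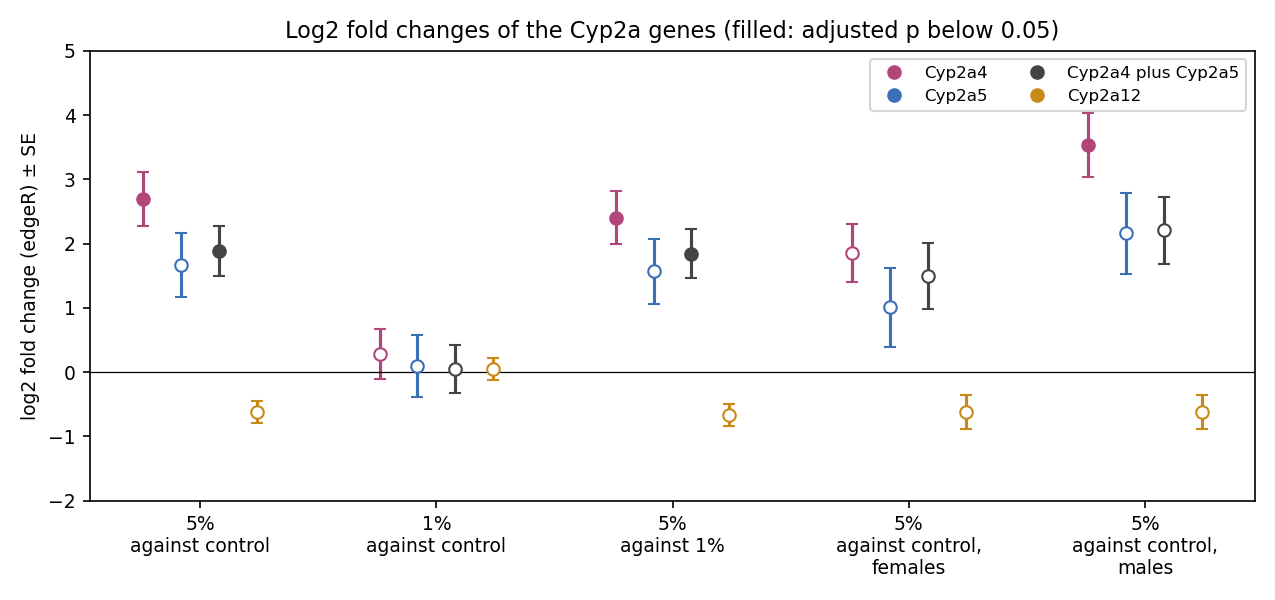
Log2 fold changes from edgeR with their standard errors for Cyp2a4, Cyp2a5, their sum and Cyp2a12 in each comparison; filled points have an adjusted p below 0.05. Cyp2a4 stood at 2.69 for VLC5 against CTRL and at 0.28 for VLC1 against CTRL, and Cyp2a12 was the only one with negative values at the 5% dose.

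Cyp2a4 was far more abundant in females than in males. Over the 3 diets it averaged 964 ± 693 CPM in females and 27.1 ± 36.6 CPM in males (SD, n = 6 each). The female level was higher by 5.73 ± 0.39 on the log2 scale (SE; 53.2-fold; edgeR adjusted p = 3.38e-06), in a comparison that called 1235 genes (8.94%). The sum was higher in females by 1.56 ± 0.31 (adjusted p = 0.0115). Cyp2a5 averaged 685 ± 270 CPM in females and 659 ± 587 CPM in males, and Cyp2a12 averaged 581 ± 132 CPM in females and 587 ± 165 CPM in males (SD, n = 6 each). For neither was a sex difference detected, with log2 differences of 0.44 ± 0.41 for Cyp2a5 (edgeR adjusted p = 0.503) and -0.02 ± 0.14 for Cyp2a12 (adjusted p = 0.951).

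The response to the 5% diet was then taken within each sex. For VLC5 against CTRL, Cyp2a4 rose by 3.53 ± 0.50 on the log2 scale in males (SE; 11.6-fold; edgeR adjusted p = 0.0259), where 25 genes passed (0.181%). In females the change was 1.85 ± 0.45 (3.61-fold), which did not pass (adjusted p = 0.0621) although 255 genes did (1.85%). The difference between the sexes, female minus male, was -1.68 ± 0.64 (edgeR unadjusted p = 0.0237, adjusted p = 0.908). No gene passed the test of that difference (645 had an unadjusted p below 0.05), so a sex difference in the response was not shown. Cyp2a5 changed by 1.01 ± 0.61 in females and 2.16 ± 0.63 in males, and neither value passed (adjusted p = 0.566 in females and 0.405 in males). The sum, which does not depend on the split, changed by 1.5 ± 0.51 in females (2.83-fold, edgeR adjusted p = 0.204) and 2.20 ± 0.53 in males (4.61-fold, adjusted p = 0.212), and passed in neither sex. Cyp2a12 changed by -0.62 ± 0.26 in each sex, short of the threshold (adjusted p = 0.321 in females and 0.748 in males).

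In males the Cyp2a4 value rested on few reads and on the split from Cyp2a5. It rested on 315 and 1591 estimated reads in VLC5 males, against 47.1 and 41.4 in CTRL males. The Cyp2a4 share of all Cyp2a4 and Cyp2a5 reads was 2.54% and 6.53% in VLC5 males, and 2.99% and 1.14% in CTRL males. In females it was 60.9% and 69.1% in VLC5, and 36.9% and 66.4% in CTRL. VLC1 livers had 58.2% and 40.4% in females and 9.69% and 1.51% in males, the highest male share being that of N971 with its low Cyp2a5 level. Wilson intervals of 95% around these shares spanned 0.554 to 3.36 percentage points, which is counting error only and covers no error of the split. How much of the Cyp2a4 signal in males came from the split was not tested.

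The share averaged 55.3 ± 13.6% in females and 4.07 ± 3.36% in males (SD, n = 6 each). That difference was the largest that any regrouping of the animals gave (2-sided exact permutation test, p = 0.00216, the smallest it can give; adjusted over 4 tests, p = 0.00866). Between diets no difference in share was detected, with 34.8 ± 35.1% in VLC5 and 26.9 ± 31.1% in CTRL (SD, n = 4 each; exact permutation p = 0.714, where the smallest possible is 0.0286). Both sexes enter each diet, so this test has little power for a difference within a sex.

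Per length of the main transcript, the order of the 3 genes differed by sex and diet. Levels are CPM divided by the length of that transcript in kilobases. In VLC5 females Cyp2a4 led with 885 and 1210, followed by Cyp2a5 with 491 and 466 and Cyp2a12 with 263 and 238, with no overlap between neighbours in that order. In CTRL females Cyp2a12 had 387 and 382, Cyp2a4 had 215 and 365, and Cyp2a5 had 317 and 159, so that Cyp2a4 and Cyp2a5 overlapped. In VLC5 males Cyp2a5 led with 696 and 695, then Cyp2a12 with 292 and 216, then Cyp2a4 with 21.0 and 56.3. In CTRL males Cyp2a12 led with 299 and 482, then Cyp2a5 with 119 and 192, then Cyp2a4 with 4.25 and 2.56. By this measure Cyp2a12 lay above Cyp2a5 in every CTRL and every VLC1 liver and below it in every VLC5 liver, in each sex. All Cyp2a5 reads were divided by the 2013 bases of its main transcript. Up to 15.6% of them per liver were on a transcript of 442 bases, which would raise Cyp2a5 per length. The order of close values, such as 387 and 317 in a CTRL female, depends on that choice.

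**Figure D3:**
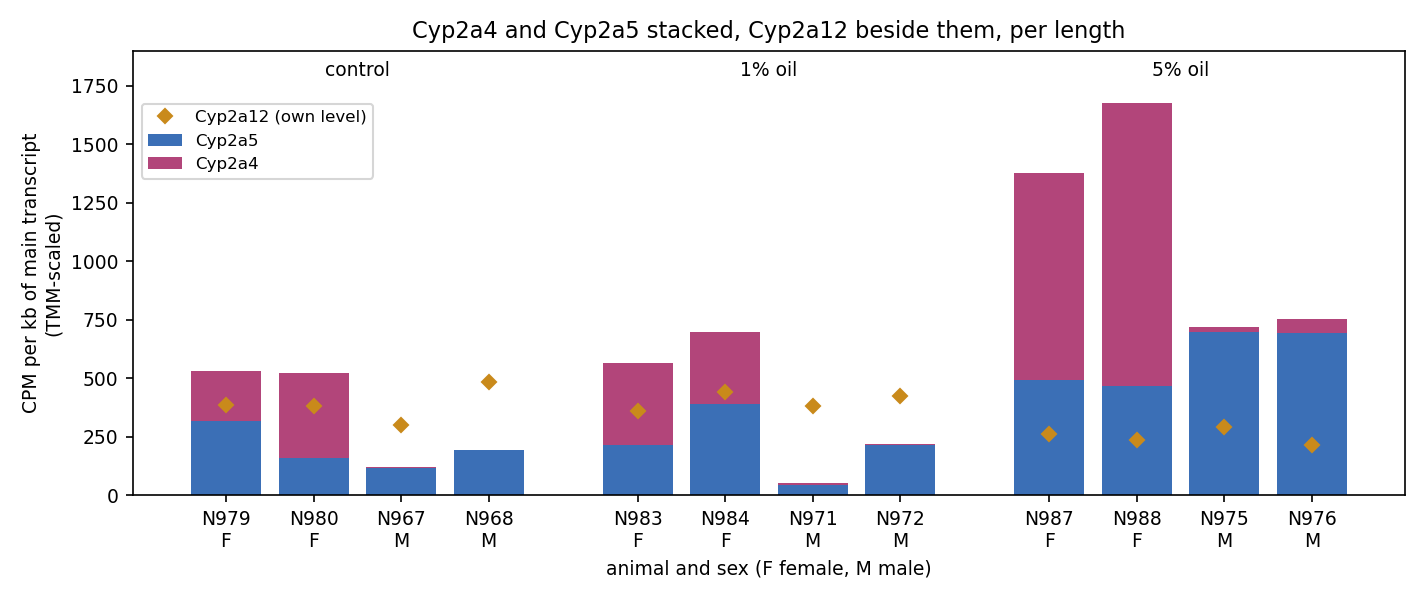
Each bar is a liver, with Cyp2a5 (bottom) and Cyp2a4 (top) stacked and Cyp2a12 as a diamond on the same axis, in CPM per kilobase of the main transcript; diets run from control to 5% oil. Bars in VLC5 males consist almost wholly of Cyp2a5 at 696 and 695, while Cyp2a4 adds 885 and 1210 in VLC5 females.

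The gene values came mostly from a single transcript each. Cyp2a4 has 1 transcript in the table. Cyp2a5-201 carried 94.2% of Cyp2a5 reads overall and 84.0% to 98.8% per liver, with most of the rest on the short transcript Cyp2a5-205 (0% to 15.6% per liver). Cyp2a12-201 carried 97.7% of Cyp2a12 reads, and the retained-intron transcript Cyp2a12-202 took 1.54% to 3.37% per liver. Cyp2a22 had 1.04 estimated reads in the VLC5 male N976 and 0 in the 11 other livers. Of the 1766 windows of 31 bases in the main Cyp2a22 transcript, 696 (39.4%) also occurred in a Cyp2a12 transcript, so these estimates rest on a split as well. At a floor of 3 reads per liver, those zeros allow up to 0.544 CPM in the shallowest library and 0.187 CPM in the deepest of them. That floor covers no error of the split. Cyp2a22 was thus not detected at this depth.

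Of the 261 genes in the authors' deposited table of a differential test, Cyp2a4 was the only member listed. The authors' deposited table gives it a log2 fold change of 1.65 with an adjusted p of 0.04996, and does not name the contrast, so its direction cannot be read from it.

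Of 9 other Cyp2 genes of the cluster, 5 passed the filter. Of these 5, 1 was called for VLC5 against CTRL (2.46% of all genes were), none for VLC1 against CTRL (0.224%) and 1 for VLC5 against VLC1 (1.33%). Cyp2b10, the classical target gene of CAR, averaged 20.5 ± 14.0 CPM in VLC5 and 4.01 ± 3.89 CPM in CTRL livers (SD, n = 4 each), and rose by 2.54 ± 0.51 on the log2 scale (edgeR adjusted p = 0.0231). Cyp2g1, chosen after its values were seen and known from olfactory tissue, had 1.98 ± 0.45 for VLC5 against VLC1 (edgeR adjusted p = 0.0468). The median log2 change of the 5 genes for VLC5 against CTRL was 0.02, and that of all genes 0.01. Cyp2f2, a P450 of periportal hepatocytes that follows Cyp2a12 in the order above, had 0.02 ± 0.23, and the female-abundant Cyp2b9 and Cyp2b13 had -0.21 ± 0.67 and -1.24 ± 0.71 (edgeR adjusted p from 0.485 to 0.99).

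**Figure D4:**
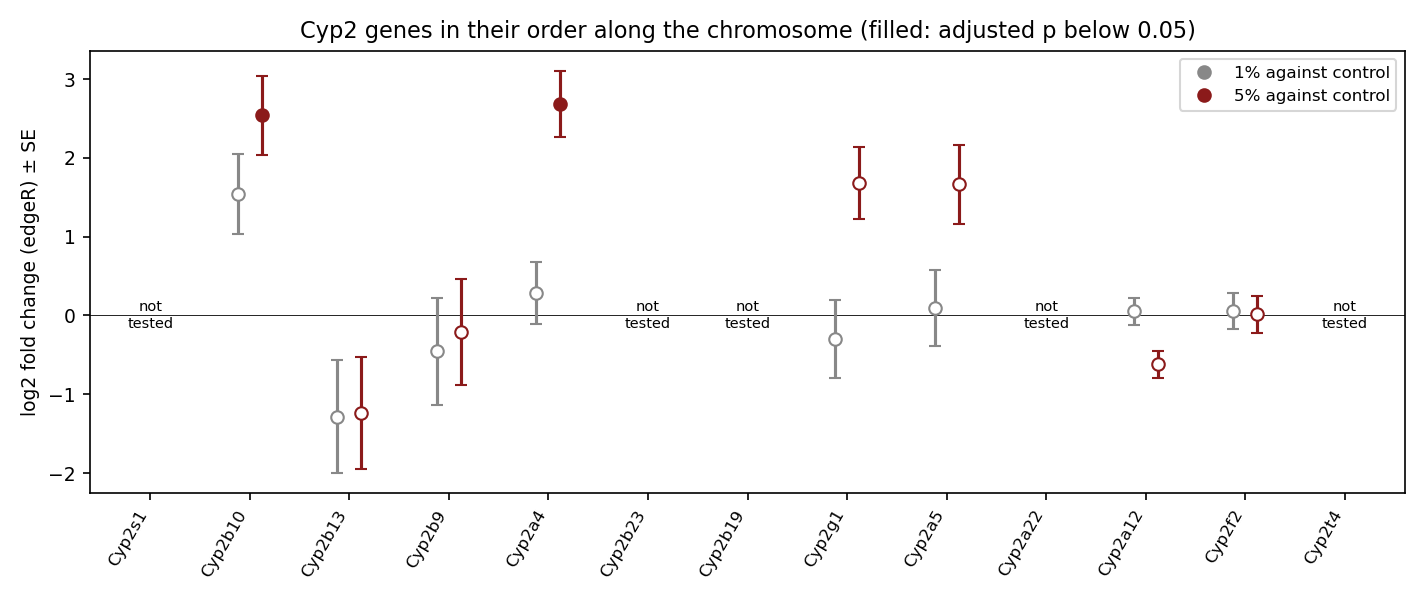
Log2 fold changes with standard errors for the Cyp2 genes of the chromosome 7 cluster, in their order along it and not to scale in distance; grey is VLC1 against CTRL, dark red VLC5 against CTRL, and filled points have an adjusted p below 0.05. Filled points are Cyp2b10 at 2.54 and Cyp2a4 at 2.69, and genes marked as not tested did not pass the filter on low counts.

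The factors and partners known from Cyp2a work moved in part. Of 28 genes on that list, all tested, 3 rose and 3 fell for VLC5 against CTRL, where 2.46% of all genes were called, with a median log2 change of 0.13 (0.01 over all genes). Dbp averaged 26.4 ± 11.3 CPM in VLC5 and 0.566 ± 0.408 CPM in CTRL livers (SD, n = 4 each), and rose by 5.36 ± 0.83 (edgeR adjusted p = 0.00919). Its relative Tef rose by 1.79 ± 0.29 (adjusted p = 0.00671), and the repressor of the same sites, Nfil3, fell by 2.09 on the log2 scale (adjusted p = 0.00750). The other genes called, named after their values were seen, were Hlf, a further relative of Dbp, with 1.14 ± 0.21 (adjusted p = 0.0126), the estrogen receptor gene Esr1 with -1.36 ± 0.24 (0.00919) and the coactivator gene Ppargc1a with -1.64 ± 0.38 (edgeR adjusted p = 0.0425). Nfe2l2 had -0.16 ± 0.18, Nr1i3 0.34 ± 0.48 and Hnf4a 0.14 ± 0.18, none of which passed (adjusted p from 0.783 to 0.832). Por, the reductase that passes electrons to all microsomal P450 enzymes, had 1.14 ± 0.29 and stopped short of the threshold (adjusted p = 0.0573). At the 1% dose, Tef rose by 1.65 ± 0.29 (edgeR adjusted p = 0.0292), and Dbp had 4.42 ± 0.84 (adjusted p = 0.0718). The part of these factors and partners in the Cyp2a values was not tested.

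Clock genes differed widely between the VLC5 and CTRL livers. Of 17 tested genes on the clock list, 7 rose and 3 fell, where 2.46% of all genes were called, with a median log2 change of 0.89 (0.01 over all genes). Dbp, Tef, Hlf and Nfil3 stand on this list and on the list of factors and partners above, so their calls are counted in both. Bhlhe41, a repressor in the clock loop, rose by 4.99 ± 0.59 (edgeR adjusted p = 0.000872), Per3 rose by 3.27 ± 0.50 (0.00572) and Cry1 fell by 1.83 on the log2 scale (0.00282). With no collection hour in the labels, diet and hour cannot be told apart here, and the part of these genes in the Cyp2a values was not tested.

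Genes known as targets of NRF2 and of CAR were examined beside the members, since Cyp2a5 is counted among the targets of both. Of 21 tested NRF2 targets, 11 rose and 0 fell for VLC5 against CTRL (2.46% of all genes were called; median log2 change 1.06), 0 passed for VLC1 against CTRL (0.224% of all genes did) and 10 were higher in VLC5 than in VLC1 (1.33% of all genes were called). The exporter Abcc4 rose by 2.97 ± 0.27 (edgeR adjusted p = 8.77e-05), the quinone reductase Nqo1 by 1.70 ± 0.18 (0.000293) and the glutathione transferase Gstm1 by 2.09 ± 0.23 (0.000387). Of 20 tested CAR targets, 5 rose and 1 fell for VLC5 against CTRL (2.46% of all genes were called, median log2 change 0.81). Among them 0 passed for VLC1 against CTRL (0.224% of all genes did) and 2 were higher in VLC5 than in VLC1 (1.33% of all genes were called). For VLC5 against CTRL, Cyp2c29 rose by 1.71 ± 0.31 (edgeR adjusted p = 0.0124) and the bile acid exporter Abcc3 by 1.06 ± 0.22 (0.0212). Abcc3 and Abcc4 stand on both lists, and Cyp2b10, given above with the cluster, is counted among the CAR targets as well. The members' own values at the same contrasts, 2.69 for Cyp2a4 and 1.66 for Cyp2a5 at 5% and 0.28 and 0.10 at 1%, share their control livers with these. The lists were chosen with earlier results of these data known, and the part of NRF2 and of CAR in the Cyp2a values was not tested.

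Genes whose levels over the 12 livers were most like those of a member were ranked by Pearson's r of log2 CPM, among 10498 genes, as a description. Cyp2a4 was most like Rassf7 (r = 0.960), and Cyp2c40, Cyp2c69 and Slc22a26 were also among the nearest (r from 0.938 to 0.956). Cyp2c40 and Cyp2c69 are genes known to be more abundant in female liver. Cyp2a5 was most like Lipg, the endothelial lipase (r = 0.860), then Ears2, Klhl25, Ubqln4 and Riok2. Cyp2a12 was most like Azgp1 (r = 0.966), and Mocs2, Rbp4 and Pxmp2 were also among the nearest (r from 0.898 to 0.916). The sum was most like Cyp2c37 (r = 0.929), then Fmo1, Ipo13, Slc37a4 and Trim24. All these values share the same livers and the same diet and sex groups.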

How the data were processed

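Poly(A) RNA libraries of 12 mouse livers were analysed from the estimated counts per gene and per transcript that the authors deposited; the submitters' processing notes name kallisto, edgeR, limma and GRCm39, with no role. Counting by strand and the annotation are not given in the sources used here. The authors' deposited table of log2 fold changes and p-values holds 261 genes. Estimated counts were rounded. Low genes were filtered with filterByExpr, scaled by TMM and tested with edgeR 4.0.16 (quasi-likelihood, robust, diet plus sex, Benjamini-Hochberg over 13814 genes, threshold 0.05). Within-sex values came from a fit of 6 groups, and the sum from a refit with both genes replaced by it. Shares were tested with scipy 1.17.1. The fit was tested on simulated counts.

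CPM for likeness had a prior count of 2. Ensembl IDs were matched to symbols for 48845 of 49398 genes, and 2 listed symbols were not matched and not analysed. Transcript lengths came from GENCODE M21. Members and lists were chosen with earlier results of these data known. Beside the members, at most 3 called genes a list with the smallest p, 5 named regulators and the 5 genes most like each member were named, except that some of these are not reported here. Alternatives were other scaling (RLE, upper quartile), filters, DESeq2 1.42.0, limma 3.58.1 voom, summed transcript counts, other covariates, 2 diets alone, and each library left out. The labels give each library its own animal number and no litter or cage.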

Additional observations from a re-analysis of the deposited data

How the results depend on the processing

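No paired analysis was possible because the animal numbers are not shared between groups. On the log2 scale, VLC5 against CTRL for Cyp2a4 was weaker with diet alone in the model (1.89), as was the sum (1.71); for VLC5 against VLC1 these were 1.71 and 1.55. For VLC5 against CTRL, Cyp2a5 passed with no filter (1.70), with DESeq2 (1.65) and with the 2 diets alone (1.58), and Cyp2a12 passed with DESeq2 (-0.64). For VLC5 against VLC1, Cyp2a5 passed with no filter (1.58) and DESeq2 (1.54), and Cyp2a12 with no filter (-0.66), DESeq2 (-0.69) and the 2 diets alone (-0.67). With no filter the 3 genes and the sum had nearly the same standard error (0.22 to 0.24 for VLC5 against CTRL). It was 0.22 for both Cyp2a5 and Cyp2a12, against 0.50 and 0.17 in the main fit. The calls with no filter are therefore not taken as support. With the share of long noncoding reads in the model, Cyp2a4 (2.34) and the sum (1.95) lost their calls for VLC5 against VLC1, and so did the sum for female against male (1.40); the sum also lost its call there with sex alone (1.27), and for VLC5 against VLC1 with the 2 diets alone (1.84). The causes were not tested.

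Values near 0 changed sign. For VLC1 against CTRL, Cyp2a5 was -0.12 and the sum -0.15 with voom, and -0.21 and -0.0700 with the long noncoding share. For female against male, Cyp2a5 was -0.0755 with the long noncoding share, and Cyp2a12 was 0.0355 with upper quartile factors, 0.0094 with 50 reads in 4 libraries and 0.0011 with voom. With voom, the sex difference of Cyp2a12 was -0.0230 in the VLC5 response and -0.0318 in the VLC1 response.

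Genes called for VLC5 against CTRL, VLC1 against CTRL, VLC5 against VLC1 and female against male were 1011, 649, 1276 and 2375 with no filter, and 749, 277, 707 and 2079 with DESeq2. With diet alone the diet comparisons called 107, 10 and 8, and sex alone called 719. The 2 diets alone gave 201, 53 and 306. The long noncoding share gave 574 for VLC5 against CTRL, 37 for VLC5 against VLC1 and 327 for female against male, and 50 reads in 4 libraries gave 50 for VLC1 against CTRL.

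Leaving out each library gave these ranges. For VLC5 against CTRL, Cyp2a5 had 1.5 to 1.89, Cyp2a12 -0.73 to -0.47, the sum 1.76 to 2.05 and the count of called genes 138 to 479. For VLC1 against CTRL, Cyp2a5 had -0.26 to 0.46, Cyp2a12 -0.0672 to 0.20, the sum -0.20 to 0.38 and the count 13 to 184. For VLC5 against VLC1, Cyp2a4 had 1.85 to 2.68, Cyp2a12 -0.75 to -0.59, the sum 1.47 to 2.10 and the count 13 to 597. For female against male, Cyp2a12 had -0.10 to 0.0695 and the count 594 to 2356. The difference in mean Cyp2a4 share ran from -3.54 to 21.1 percentage points for VLC5 against CTRL and from -9.66 to 13.8 for VLC1 against CTRL. For VLC5 against VLC1 it ran from -4.14 to 18.1. Leaving out a liver also unbalances the sexes of its diet. The share differed widely by sex and had no term for it, so these ranges do not separate the 2. With 4 livers a diet, the lists of called genes and the calls near the threshold depend on single libraries.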

Other observations

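For VLC5 against CTRL, the called sex-biased genes other than Cyp2a4 did not all move in 1 direction. Of 17 tested genes known to be female-biased in liver, 14 were called higher in females here and 1 was called lower. For VLC5 against CTRL 2 of the 17 rose and 2 fell, where 2.46% of all genes were called. The acyl-CoA thioesterase Acot3 rose by 2.18 ± 0.33 on the log2 scale (edgeR adjusted p = 0.00572), while the P450 genes Cyp3a41a and Cyp3a44 fell, with log2 changes of -6.65 (adjusted p = 0.00824) and -6.18 (0.0101). Of 13 tested male-biased genes, 12 were lower in females, and 0 rose and 1 fell for VLC5 against CTRL. It was the steroid dehydrogenase gene Hsd3b5, at 5.82 ± 6.57 CPM in VLC5 and 28.2 ± 35.5 CPM in CTRL livers (SD, n = 4 each, edgeR adjusted p = 0.0488). The median log2 change was -0.29 for the female-biased and -0.74 for the male-biased genes (0.01 over all genes). For VLC5 against VLC1, all called genes of both lists fell, 3 female-biased and 2 male-biased (1.33% of all genes were called). The medians there were 0.10 and -0.49.

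The 4 zonation markers called for VLC5 against CTRL all fell. Of 13 tested pericentral hepatocyte genes 0 rose and 2 fell for VLC5 against CTRL, where 2.46% of all genes were called, Lect2 with a log2 change of -1.22 (edgeR adjusted p = 0.00911) and Gulo, which makes vitamin C, with -0.77 (0.0380). Of 12 tested periportal genes 0 rose and 2 fell, the urea cycle gene Ass1 with -1.32 (edgeR adjusted p = 0.00646) and the apolipoprotein gene Apoa4 with -3.82 (0.0185). No marker of hepatocytes (7 tested), Kupffer cells and macrophages (8), endothelial (7), stellate (7) or bile duct cells (5), lymphocytes (4) or neutrophils (3) passed in that comparison, in which 2.46% of all genes did.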
